A study of Rattus norvegicus with 12 samples.

Results

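The genes described here are the subunits of the vacuolar proton pump (V-ATPase) with its accessory proteins, the cathepsins, and 4 membrane proteins of the lysosome, Clcn7, Ostm1, Lamp1 and Lamp2, in long bone of female rats. They were taken by symbol (Tcirg1, every symbol starting with Atp6v0, Atp6v1 or Atp6ap, the cathepsin symbols except Ctsg, and the 4 membrane proteins). This gave 46 of the 14217 genes measured, from 59 of the 31042 probe sets of an Affymetrix rat array. By role they were 12 subunits of the V1 sector of the pump, 9 of the V0 sector, 3 accessory proteins, 18 cathepsins and 4 proteins of the lysosomal membrane. Atp6v0d2 and Atp6v1e2, which the array's annotation did not name, were not analysed here.

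The study asked whether blueberry (BB) feeding early in life alters what ovariectomy (OVX) does to bone. All rats were Sprague-Dawley females sampled at postnatal day 81, after an operation on day 60. The STBB OVX group ate a diet with 10% BB from day 20 to day 34, then control diet, and was ovariectomized. The LTBB OVX group ate the BB diet from day 20 until sacrifice and was ovariectomized, the OVX group ate casein control diet and was ovariectomized, and the sham group ate casein control diet and was sham-operated. No sham-operated rats on BB diet were analysed here. Each group had 3 arrays, and each array held RNA pooled from 2 to 3 rats, so p-values measure the spread between pools. The sample labels give the bone as femur, whereas the methods give right tibia. The deposited values are log2 and centred, with a median of 0 across the 12 arrays for every probe set. A value below is therefore a distance from that median, and levels of different genes cannot be set against each other. Since 9 of the 12 arrays came from ovariectomized rats, the median of a gene that differs in sham lies among the ovariectomized arrays.

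The V-ATPase moves protons across membranes with energy from ATP. Its V1 sector (subunits A to H) splits ATP in the cytosol, and its V0 sector (a, c, d, e and others) carries the protons through the membrane. It acidifies lysosomes in all cells, and in the osteoclast, the bone-resorbing cell, it also acidifies the space under the cell, where mineral dissolves and cathepsin K, secreted there, cuts collagen. Several subunits come in isoforms coded by separate genes, and Tcirg1 codes for a3, the isoform of the a subunit known from the osteoclast border. Human TCIRG1, CLCN7, OSTM1 and CTSK are genes of inherited dense-bone disease.

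Most of these genes were higher in bone of ovariectomized than of sham rats, and none differed between the ovariectomized groups after adjustment. In OVX against sham, 29 members were higher, 5 were lower and 12 did not pass (limma, Benjamini-Hochberg adjusted p under 0.05 over all genes). Of all genes tested, 58.9% passed in this comparison, 30.3% higher and 28.6% lower. The members' share was thus above that of all genes on the higher side and below it on the lower side. The median difference was 0.65 on the log2 scale over the members, against 0.0047 over all genes. In 30 members each of the 3 OVX pools exceeded each sham pool, and in 5 each was below, as was so for 31.5% and 29.7% of all genes. All 9 pools of ovariectomized rats lay above all 3 sham pools in 28 members and below them in 5. The same held for 3859 and 3701 of all 14217 genes, so such a separation was common. Against the same sham pools, STBB OVX had 28 members higher and 5 lower (of all genes 58.3% passed, 29.3% higher and 29.0% lower), and LTBB OVX had 30 higher and 5 lower (58.3%, 29.2% and 29.1%). The mean of the 3 ovariectomized groups had 30 higher and 5 lower (64.0%, 32.3% and 31.7%). These comparisons share the sham arrays. The arrays were also quantile-normalized once more. This step gives each array the same distribution of centred values, so it also acts on differences between arrays of unequal spread. Over all genes, calls in OVX against sham went from 8367 to 3010. Among the members the calls were 22 higher and 1 lower, and 11 members lost their call, the cause of which was not tested. They were Ctse (-0.70, adjusted p = 0.123), Atp6v0a1 (-0.50, adjusted p = 0.0536), Atp6v0a4, Atp6v0b, Atp6v0e2, Atp6v1g3, Ctsc, Ctss, Clcn7, Ostm1 and Lamp2, while Ctsk (1.92) and Tcirg1 (0.62) passed with smaller differences. The RNA came from whole bone, in which more cells of a type and more RNA per cell cannot be told apart.

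**Figure D1:**
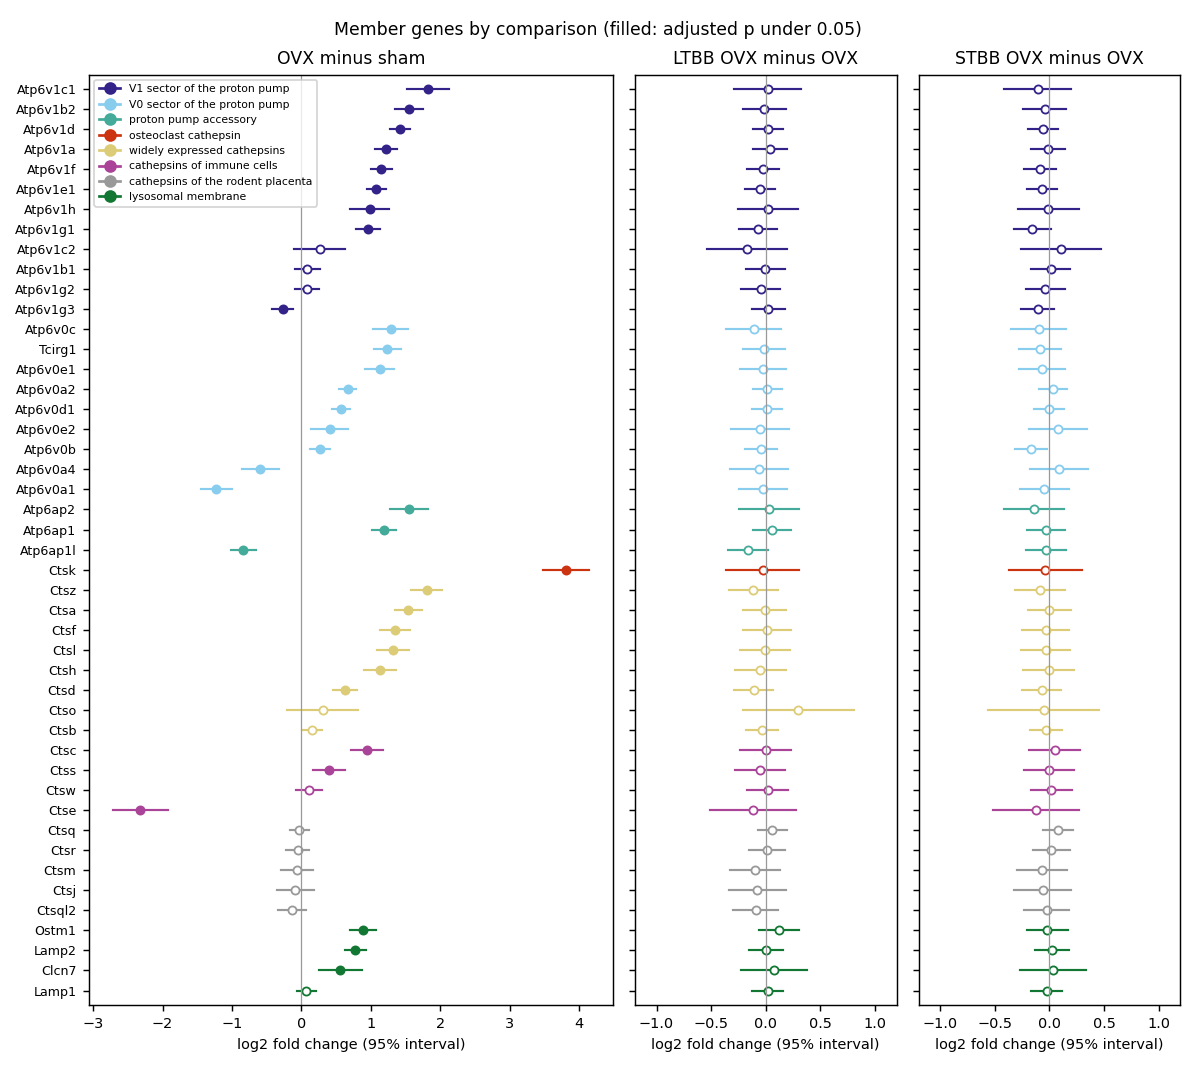
Log2 fold change of each of the 46 member genes with its 95% interval, in OVX minus sham, LTBB OVX minus OVX and STBB OVX minus OVX, with genes grouped and coloured by role. Filled points passed an adjusted p of 0.05. Ctsk lies farthest to the right at 3.81 and Ctse farthest to the left at -2.32 in OVX minus sham, and no point is filled in either diet comparison.

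Windows of 250 bases before to 50 bases after the start of the gene (RefSeq, assembly GRCr8) were at hand for 38 of the 46 members. They were searched on both strands for motifs of the MiT/TFE factors, a family that includes TFEB, a regulator of lysosomal genes, and MITF, a regulator of osteoclast genes. The E-box CACGTG was in the windows of 6 members, 15.8% of the 38, against 9.38% of 11700 tested genes with a window and 7.08% of all 27457 windows. The 6 were Atp6v0d1, Atp6v0e1, Clcn7, Ctsd, Ctsf and Lamp1. The M-box TCATGTG was in the windows of 5 members (Atp6v0c, Atp6v1a, Clcn7, Ctsk and Ctss), 13.2% of the 38, against 2.44% of tested genes with a window and 3.85% of all windows. The full CLEAR element, the E-box with GT before and AC after it, was in none of the 38 windows and in 0.479% of those of tested genes. Of the members that rose in OVX against sham, 5 of 25 with a window held the E-box, against 0 of 5 that fell and 1 of 8 that did not pass. A match describes the letters alone.
The windows of Ctsk and Lamp1 are printed whole, since Ctsk had the largest difference of all members and Lamp1, with 5 E-boxes, had a small one. Capitals mark CACGTG, or TCATGTG in either orientation.
Ctsk, chr2:185747298-185747597, plus strand: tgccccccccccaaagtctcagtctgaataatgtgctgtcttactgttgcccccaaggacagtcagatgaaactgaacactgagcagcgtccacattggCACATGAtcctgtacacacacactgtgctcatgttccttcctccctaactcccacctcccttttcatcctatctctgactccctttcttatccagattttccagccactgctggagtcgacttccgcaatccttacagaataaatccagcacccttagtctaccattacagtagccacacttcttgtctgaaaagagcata
Lamp1, chr16:83075014-83075313, minus strand: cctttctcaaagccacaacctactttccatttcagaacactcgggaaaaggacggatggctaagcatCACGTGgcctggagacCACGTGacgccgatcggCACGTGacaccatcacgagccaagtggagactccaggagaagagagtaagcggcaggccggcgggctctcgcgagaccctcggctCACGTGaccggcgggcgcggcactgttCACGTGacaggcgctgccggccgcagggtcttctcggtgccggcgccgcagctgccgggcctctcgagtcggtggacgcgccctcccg
Shorter stretches are given for Clcn7, the one member with both motifs, for the pump subunit d1, with 1 E-box, and for cathepsin D, of whose 2 E-boxes the one farther from the start is in the stretch.
Clcn7, chr10:14656203-14656256, plus strand: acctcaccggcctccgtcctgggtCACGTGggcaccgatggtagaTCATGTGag
Atp6v0d1, chr19:50357271-50357324, minus strand: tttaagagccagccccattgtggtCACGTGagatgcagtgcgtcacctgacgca
Ctsd, chr1:206968949-206969002, minus strand: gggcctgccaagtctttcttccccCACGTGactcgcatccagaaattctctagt
The M-box of Ctsk begins 151 bases before the start. The E-boxes of Ctsd begin 157 and 10 bases before it. In Clcn7 the E-box begins 34 bases and the M-box 13 bases before it, while the E-boxes of Lamp1 begin 183, 167, 150, 65 and 38 bases before it.

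The 4 genes of the a subunit, which anchors the pump in the membrane and directs it to its compartment, did not move together. In OVX against sham, in the values as deposited, Tcirg1 (a3) and Atp6v0a2 (a2) were higher, and Atp6v0a1 (a1) and Atp6v0a4 (a4) were lower. After quantile normalization Tcirg1 and Atp6v0a2 kept their calls. Neither fall passed there in limma, with Atp6v0a1 at -0.50 (adjusted p = 0.0536) and Atp6v0a4 at -0.47 (adjusted p = 0.214). Tcirg1 stood at -0.020, 0.012 and -0.022 in the STBB OVX pools, 0.11, 0.0048 and 0.075 in the LTBB OVX pools and -0.038, 0.075 and 0.20 in the OVX pools, against -1.11, -1.35 and -1.01 in sham. All 9 pools of ovariectomized rats lay above all 3 sham pools, as they did for 3859 of all 14217 genes. OVX minus sham was 1.24 (SE 0.089, adjusted p = 6.6e-08), a 2.36-fold difference. Its 2 probe sets differed in size, at 1.98 and 0.50.

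Atp6v0a1, the a isoform known from neurons, moved the other way. It stood at -0.16, 0.0042 and -0.057 in the STBB OVX pools, 0.060, 0.084 and -0.30 in the LTBB OVX pools and -0.048, -0.019 and -0.0042 in the OVX pools, against 1.31, 1.25 and 1.05 in sham. No ovariectomized pool reached the sham range, and OVX minus sham was -1.23 (SE 0.10, adjusted p = 2.6e-07). Atp6v0a4, the a isoform of kidney intercalated cells, was lower by less, at -0.59 (SE 0.12, adjusted p = 1.0e-03). Atp6v0a2, an isoform of the Golgi and endosomes, stood at -0.029, 0.066 and 0.069 in the STBB OVX pools, -4.5e-04, 0.040 and 0.0089 in the LTBB OVX pools and 0.039, 0.0056 and -0.045 in the OVX pools, against -0.61, -0.70 and -0.68 in sham, again without overlap, and OVX minus sham was 0.67 (SE 0.059, adjusted p = 5.5e-07).

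**Figure D2:**
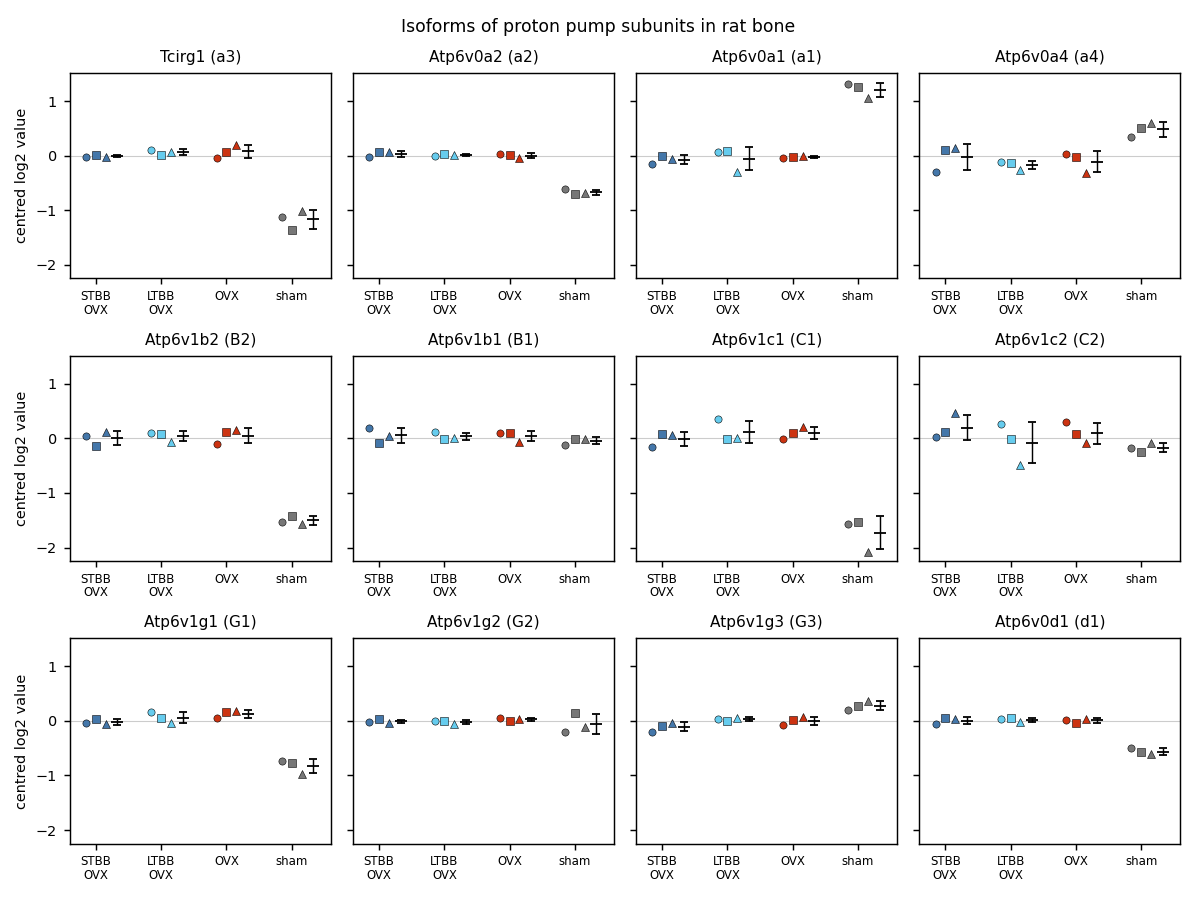
Centred log2 value of each pool for the genes of the pump subunits that exist in several isoforms, with groups from left to right STBB OVX, LTBB OVX, OVX and sham. Points are single pools, short horizontal marks are group means and bars are the SD. Sham pools lie lowest for Tcirg1, Atp6v1b2 and Atp6v1c1 and highest for Atp6v0a1.

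The difference between 2 genes within an array is free of an offset shared by the whole array, but not of the spread of its values. Tcirg1 minus Atp6v0a1 averaged 0.092 ± 0.13 (SD, n = 9) in ovariectomized rats, against -2.36 ± 0.27 (SD, n = 3) in sham rats. The ratio of a3 to a1 signal was thus 5.49-fold higher after ovariectomy, a log2 difference of 2.46. Tcirg1 minus Atp6v0a4 differed by 1.79 and Tcirg1 minus Atp6v0a2 by 0.52, ovariectomized minus sham. Each of 15 such pairs of members gave p = 0.00909 in a two-sided exact permutation test of 9 against 3 arrays. This is the smallest p this design can give, and adjustment over the 15 pairs left it the same. Any pair whose differences separate the 9 arrays from the 3 reaches it, and the share of other gene pairs that do was not computed. The a3 to a4 pair and the pairs of subunits B, C and G were added after the values had been seen. The p thus does not set these pairs apart from others. With 3 OVX against 3 sham arrays, the smallest possible p is 0.10, and every pair reached it. With the probe set of Tcirg1 that moved less taken alone, the difference from a1 was 1.72, while that from a2 turned to -0.22 (exact permutation test, adjusted p = 0.118), so that the larger change of a3 than of a2 rests on the other probe set. After quantile normalization the differences were smaller, at 1.10 from a1, 0.98 from a4 and 0.24 from a2, and passed.

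Among the other V0 subunits, all 5 measured were higher in OVX than in sham in the values as deposited, and Atp6v0b (adjusted p = 0.0989) and Atp6v0e2 (adjusted p = 0.409) did not pass after quantile normalization. Atp6v0c, the subunit of the proton-carrying ring, stood at -0.080, 0.082 and -0.042 in the STBB OVX pools, 0.15, 0.071 and -0.29 in the LTBB OVX pools and 0.042, 0.049 and 0.17 in the OVX pools, against -1.08, -1.12 and -1.41 in sham. Its OVX minus sham difference was 1.29 (SE 0.12, adjusted p = 5.7e-07), with no overlap between the ovariectomized and sham pools. Atp6v0e1 differed by 1.13 (SE 0.097). Atp6v0d1, the widely expressed form of the d subunit that joins V0 to the stalk, differed by 0.57 (SE 0.062). Atp6v0e2 (0.41) and Atp6v0b (0.26) passed with small differences, and the 2 probe sets of Atp6v0b gave 0.36 and 0.17. Without sham pool 1, Atp6v0e2 did not pass (0.33, adjusted p = 0.0507). RefSeq lists pseudogene copies of Atp6v0c, Atp6v1a, Atp6v1e1 and Atp6v1g1, so the values of these 4 genes may include signal from a copy.

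In the V1 sector, 8 of 12 genes were higher in OVX than in sham, 1 was lower and 3 did not pass, with a median difference of 1.03. In each of the 3 V1 isoform families with several genes measured (B, C and G), the widely expressed gene moved more than the tissue-restricted one. The centring removed the levels, so whether probe sets of the tissue-restricted genes lay near background could not be seen. Atp6v1b2 (B2), the nucleotide-binding partner of A in most cells and in osteoclasts, stood at 0.040, -0.14 and 0.12 in the STBB OVX pools, 0.10, 0.087 and -0.072 in the LTBB OVX pools and -0.11, 0.11 and 0.16 in the OVX pools, against -1.53, -1.42 and -1.57 in sham. Its ovariectomized pools all lay above its sham pools, and OVX minus sham was 1.55 (SE 0.092, adjusted p = 1.1e-08), 2.94-fold. Atp6v1b1 (B1), known from kidney and inner ear, did not pass, at 0.087 (SE 0.082, adjusted p = 0.39).

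Atp6v1c1 (C1), part of the link between V1 and V0 that is broken when the pump is switched off, had the largest rise of all pump genes. It stood at -0.16, 0.072 and 0.062 in the STBB OVX pools, 0.35, -0.0075 and 0.0067 in the LTBB OVX pools and -0.0067, 0.091 and 0.21 in the OVX pools, against -1.56, -1.54 and -2.08 in sham. OVX minus sham was 1.82 (SE 0.14, adjusted p = 1.5e-07), 3.54-fold, with no overlap. Atp6v1c2 (C2), known from lung and kidney, stood at 0.022, 0.11 and 0.46 in the STBB OVX pools, 0.27, -0.022 and -0.48 in the LTBB OVX pools and 0.29, 0.083 and -0.094 in the OVX pools, against -0.18, -0.24 and -0.082 in sham. Its groups overlapped, with a difference of 0.26 (SE 0.17, adjusted p = 0.204). Atp6v1g1 (G1), a stalk subunit, was higher by 0.96 (SE 0.079, adjusted p = 2.5e-07), while Atp6v1g2 (G2, brain) gave 0.081 (SE 0.082, adjusted p = 0.422), passing at 0.18 without sham pool 2, and Atp6v1g3 (G3, kidney) was lower by a small amount, at -0.27 (SE 0.070, adjusted p = 0.00464). The 2 probe sets of Atp6v1g3 gave -0.49 and -0.055. Within arrays, ovariectomized minus sham, B2 minus B1 differed by 1.45, C1 minus C2 by 1.55, G1 minus G2 by 0.83 and G1 minus G3 by 1.18, and these 4 pairs and the a3 to a4 pair were added after the values had been seen. After quantile normalization C1 minus C2 was 0.60 and did not pass (exact permutation test, adjusted p = 0.136), while the other 3 passed at 0.54, 0.43 and 0.63.

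**Figure D3:**
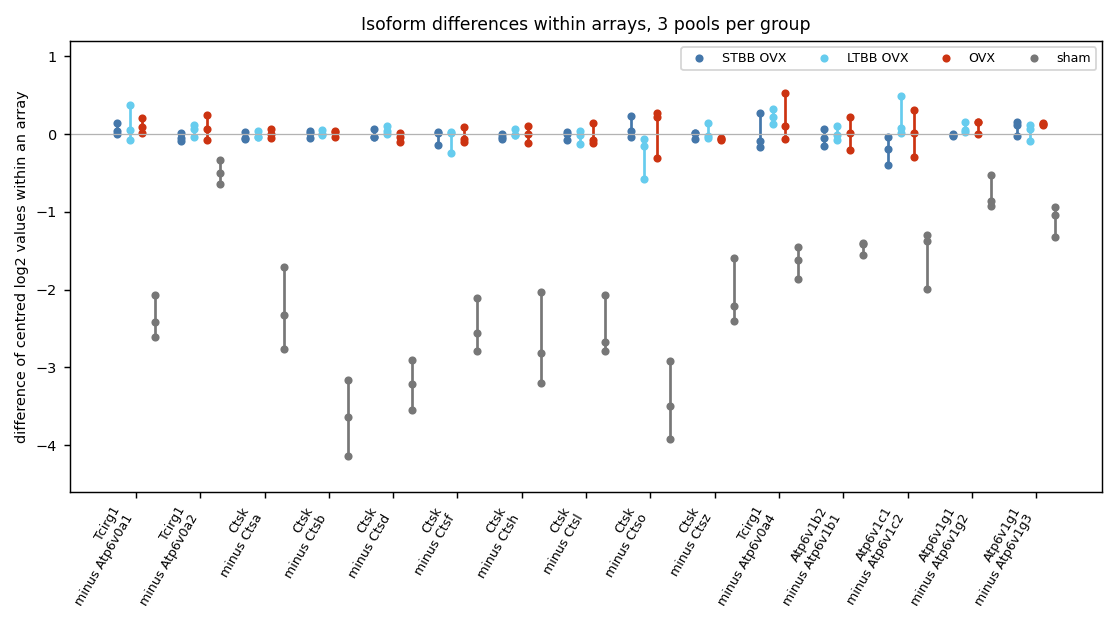
Within-array log2 difference between an osteoclast or widely expressed gene and another member of its family, one point per array, with groups from left to right STBB OVX, LTBB OVX, OVX and sham. Sham arrays lie below every array of the other 3 groups in each pair shown.

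The remaining V1 subunits rose together in OVX against sham, between 0.98 (Atp6v1h, the regulatory H subunit) and 1.42 (Atp6v1d, part of the central rotor). Atp6v1d stood at -0.058, 0.045 and -0.045 in the STBB OVX pools, 0.065, 0.069 and 0.050 in the LTBB OVX pools and -0.067, 0.098 and 0.094 in the OVX pools, against -1.42, -1.37 and -1.35 in sham, and its difference had an SE of 0.064 (adjusted p = 1.1e-09). Atp6v1a, which holds the sites of ATP splitting, was higher by 1.22 (SE 0.072), Atp6v1f by 1.15 (SE 0.067) and Atp6v1e1 by 1.08 (SE 0.063). Both larger accessory genes rose as well. Atp6ap2, the prorenin receptor that is needed to assemble the pump, stood at 0.036, -0.11 and 0.031 in the STBB OVX pools, 0.27, 0.16 and 0.057 in the LTBB OVX pools and -0.13, 0.34 and 0.18 in the OVX pools, against -1.21, -1.41 and -1.64 in sham. It was higher by 1.55 (SE 0.13) in OVX than in sham, and Atp6ap1 (Ac45) by 1.19 (SE 0.081). Atp6ap1l, a gene related to Atp6ap1, stood at -0.064, 0.087 and -0.061 in the STBB OVX pools, -0.048, -0.20 and -0.18 in the LTBB OVX pools and 0.033, -0.033 and 0.055 in the OVX pools, against 0.69, 0.89 and 0.99 in sham, with a difference of -0.84 (SE 0.083, adjusted p = 1.6e-06) and no overlap.

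The cathepsins are proteases of lysosomes, and Ctsk had by far the largest difference of the 46 members. It stood at -9.9e-05, 0.017 and 9.9e-05 in the STBB OVX pools, 0.049, 0.013 and -0.011 in the LTBB OVX pools and -0.050, 0.087 and 0.095 in the OVX pools, against -3.66, -4.24 and -3.40 in sham. The 9 ovariectomized pools lay within 0.145 of each other, with all 3 sham pools far below them. OVX minus sham was 3.81 (95% interval 3.48 to 4.15), 14.05-fold, with SE 0.15 and adjusted p = 4.1e-10. The SE uses 1 spread shared by the 4 groups. The SD of Ctsk was 0.43 in sham and 0.082 in OVX, so this interval may be too narrow. This was also the largest difference from sham for STBB OVX and for LTBB OVX among the members.

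Of 8 widely expressed cathepsins, 6 were higher in OVX than in sham and 2 did not pass. Ctsz (cathepsin Z, a carboxypeptidase) stood at -0.0095, 0.082 and -0.0097 in the STBB OVX pools, 0.079, 0.062 and -0.16 in the LTBB OVX pools and 0.0095, 0.17 and 0.15 in the OVX pools, against -1.45, -1.84 and -1.81 in sham. All of its ovariectomized pools lay above its sham pools. OVX minus sham was 1.81 (SE 0.10) for Ctsz, 1.54 (SE 0.091) for Ctsa (the protective protein of beta-galactosidase) and 1.35 (SE 0.10) for Ctsf. Ctsl, a collagen- and elastin-cutting relative of Ctsk, differed by 1.32 (SE 0.10), with 1.92 and 0.71 for its 2 probe sets. Ctsh, an aminopeptidase, differed by 1.14 (SE 0.11), and Ctsd, the main aspartic protease of lysosomes, by 0.63 (SE 0.081). Ctsb, among the most abundant cathepsins of most tissues, stood at -0.038, 0.0029 and 0.047 in the STBB OVX pools, -0.0029, 0.0089 and 0.0047 in the LTBB OVX pools and -0.010, 0.042 and 0.070 in the OVX pools, against -0.016, -0.10 and -0.25 in sham. Its difference of 0.16 (95% interval 0.0091 to 0.30) did not pass (adjusted p = 0.0646), with an upper bound far below the difference of Ctsk. Ctso, for which the sham pools were 0.26, -0.75 and -0.48, did not pass in OVX against sham at 0.31 (SE 0.23, adjusted p = 0.284) but did in LTBB OVX against sham at 0.61 (SE 0.23, adjusted p = 0.0411). Without sham pool 1, Ctsb (0.21) and Ctso (0.60) both passed in OVX against sham. Within arrays, the difference Ctsk minus each of these 8 genes was higher in ovariectomized than in sham rats, by 2.05 for Ctsz, the least, to 3.65 for Ctsb, the most, and by 1.17 to 1.81 for the same genes after quantile normalization. These values compare changes, not levels.

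**Figure D4:**
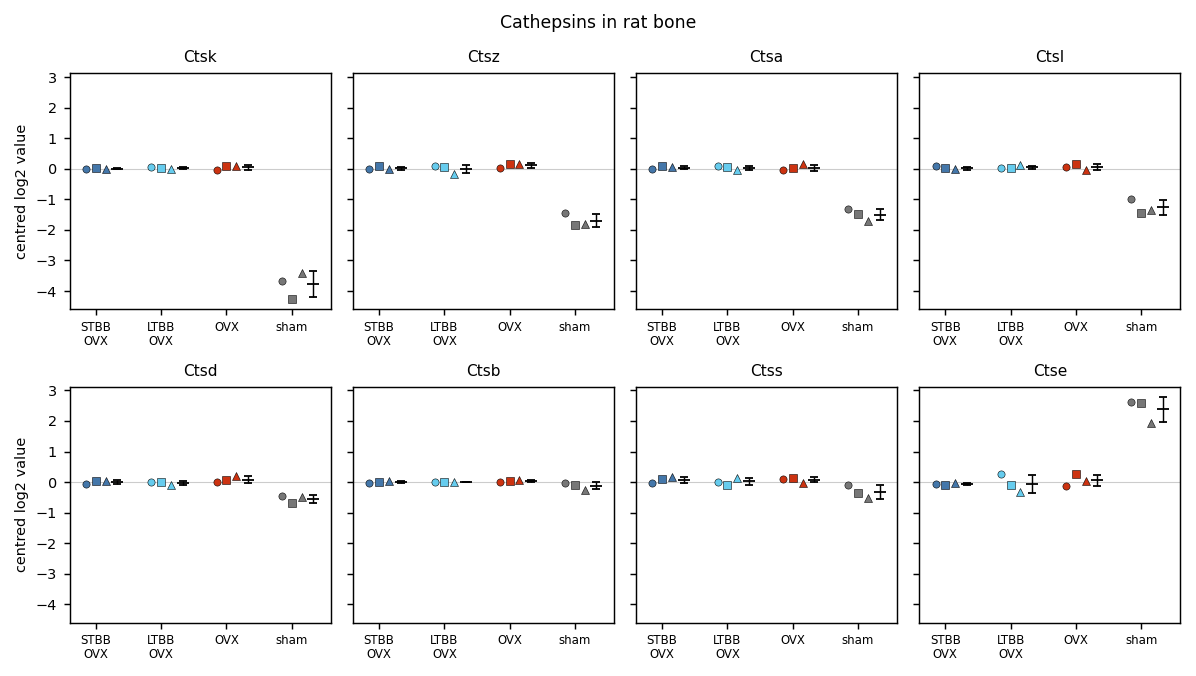
Centred log2 value of each pool for Ctsk, Ctsz, Ctsa, Ctsl, Ctsd, Ctsb, Ctss and Ctse, with groups from left to right STBB OVX, LTBB OVX, OVX and sham. Points are single pools, short horizontal marks are group means and bars are the SD. Sham pools of Ctsk lie at -4.24 to -3.40 and those of Ctse at 1.92 to 2.63, on opposite sides of the other groups.

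Of the 4 cathepsins of immune cells, 2 were higher in OVX than in sham, 1 was lower and 1 did not pass. After quantile normalization none of the 4 passed, with Ctsc at 0.44 (adjusted p = 0.0629), Ctss at 0.26 (adjusted p = 0.190) and Ctse as given above. Ctsc, which activates proteases of white blood cell granules, was higher in OVX than in sham by 0.95 (SE 0.11, adjusted p = 5.0e-06), and Ctss, an antigen-processing cathepsin of macrophages and dendritic cells, by 0.40 (SE 0.10, adjusted p = 0.00506). Ctss lies on chromosome 2 with 2 annotated genes between it and Ctsk, and its window also held the M-box, at 3 bases after the start. Ctse, an aspartic cathepsin of blood-forming, immune and stomach cells, stood at -0.067, -0.094 and -0.038 in the STBB OVX pools, 0.26, -0.10 and -0.33 in the LTBB OVX pools and -0.12, 0.25 and 0.038 in the OVX pools, against 2.63, 2.58 and 1.92 in sham. It was the largest fall of the 46 members, -2.32 (SE 0.18, adjusted p = 1.6e-07), with no overlap. The erythroid and neutrophil marker lists were lower as well, and their part in the value of Ctse was not tested. Ctsw of cytotoxic lymphocytes did not pass, at 0.11 (SE 0.085, adjusted p = 0.281). The 5 cathepsins of the rodent placenta (Ctsj, Ctsm, Ctsq, Ctsql2 and Ctsr), which are not known from bone, lay between -0.13 and -0.032 in OVX minus sham, and none passed.

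Of the proteins of the lysosomal membrane, 3 rose in OVX against sham and Lamp1 did not pass. The 3 calls were lost after quantile normalization, where Clcn7 was 0.28 (adjusted p = 0.574), Ostm1 0.31 (adjusted p = 0.161) and Lamp2 0.32 (adjusted p = 0.0543). Clcn7, the chloride-proton exchanger that balances the charge of pumped protons, stood at 0.18, -0.059 and 0.075 in the STBB OVX pools, 0.29, 0.33 and -0.28 in the LTBB OVX pools and -0.031, 0.031 and 0.11 in the OVX pools, against -0.50, -0.69 and -0.39 in sham. Its difference was 0.56 (SE 0.14, adjusted p = 0.0036). Ostm1, the partner that holds Clcn7 stable, stood at 0.049, -0.049 and -0.14 in the STBB OVX pools, 0.11, 0.12 and 0.060 in the LTBB OVX pools and -0.23, 0.058 and 0.092 in the OVX pools, against -0.85, -0.96 and -0.91 in sham, and its difference was 0.88 (SE 0.086, adjusted p = 1.3e-06). Lamp2, a structural membrane protein, differed by 0.78 (SE 0.072), with 1.22 and 0.33 for its 2 probe sets. Lamp1 differed by 0.072 (SE 0.066, adjusted p = 0.371), and its 3 probe sets gave 0.24, 0.052 and -0.080. With the first of these alone it passed (adjusted p = 0.00981).

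The differences of the 3 ovariectomized groups from sham lay close together for the members given here, which had large or smaller changes. Ctsk was 3.77 in STBB OVX minus sham, 3.79 in LTBB OVX minus sham and 3.81 in OVX minus sham. In the same order, Tcirg1 was 1.15, 1.22 and 1.24, Atp6v0a1 -1.27, -1.26 and -1.23, and Atp6v1c1 1.72, 1.84 and 1.82. Clcn7 was 0.59, 0.64 and 0.56, Lamp2 0.80, 0.78 and 0.78, and Ctse -2.44, -2.44 and -2.32. The V1 sector had 8 of 12 genes higher and 1 lower in each of the 3 comparisons. In the values as deposited, the V0 sector had 6 higher in STBB OVX, where Atp6v0b did not pass, and 7 in LTBB OVX and in OVX. Atp6v0a1 and Atp6v0a4 were lower in each. All 3 sets of values are relative to the same 3 sham arrays.

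Feeding BB was followed by no detectable difference in these genes among the ovariectomized rats. In LTBB OVX against OVX, STBB OVX against OVX and STBB OVX against LTBB OVX, 0 members passed in limma, as did 0.00% of all genes in each. At an unadjusted p under 0.05, 0, 1 and 0 members were found, against 2.31%, 2.89% and 3.40% of all genes. The 1 was Atp6v0b, at -0.17 (95% interval -0.31 to -0.019) in STBB OVX minus OVX (limma, unadjusted p = 0.0297), which did not hold after adjustment. The 3 pools of each group did not overlap for Atp6ap1l, lower in LTBB OVX than in OVX, with 8.70% of all genes not overlapping. For STBB OVX against OVX this held for Ctsq, higher, and for Atp6v0b and Atp6v1g1, lower (9.38% of all genes). For STBB OVX against LTBB OVX it held for Atp6ap2, Atp6v1d, Atp6v1g3, Ctso and Ostm1, all lower (10.9% of all genes).

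The differences between diets were bounded. The 95% interval lay within a 1.5-fold change either way for 46 of 46 members in STBB OVX minus OVX and for 45 in LTBB OVX minus OVX. Ctso was the exception, at 0.30 (95% interval -0.21 to 0.81). For STBB OVX minus LTBB OVX it held for 44, with Atp6v1c2 and Ctso as exceptions. Ctsk minus its value in OVX was -0.027 (95% interval -0.36 to 0.31) in LTBB OVX and -0.038 (95% interval -0.37 to 0.30) in STBB OVX. Tcirg1 was -0.017 (95% interval -0.21 to 0.18) and -0.090 (95% interval -0.28 to 0.10) in the same order. All these intervals use 1 spread shared by the 4 groups, sham included. The SD of Ctsk was 0.0097 in STBB OVX, 0.030 in LTBB OVX and 0.082 in OVX, against 0.43 in sham. Its diet intervals thus mostly carry the spread of sham. Over the members, the median range among the 9 ovariectomized pools was 0.263, with Ctsb the narrowest at 0.108 and Atp6v1c2 the widest at 0.944.

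Other genes of the lysosome were read from lists that were chosen with earlier results of these data known. In OVX against sham, 23 of 28 lysosomal hydrolases rose, 1 fell and 4 did not pass, with a median of 1.15, against 30.3% of all genes higher and 28.6% lower. Among them were Arsb (3.36), Idua (2.19) and Gla (1.84), which cut sugar chains and lipids, and Glb1 (1.70), the lysosomal beta-galactosidase. Ids, the one that fell, did so by a small amount (-0.21). Of 22 genes of the lysosomal membrane and of transport to it, 11 rose, 2 fell and 9 did not pass, with a median of 0.18, so that the share past the test, 59.1%, was close to the 58.9% of all genes. Snx10, an endosomal sorting protein whose human gene is also a dense-bone gene, was higher by 2.41 (SE 0.14), Cd63 by 1.78 (SE 0.077) and Laptm4a by 1.75 (SE 0.073), and Slc11a2 (-0.79) and Lamtor2 (-0.48) were the 2 that fell.

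Of 8 genes of mannose 6-phosphate sorting, which sends hydrolases to the lysosome, 5 rose, 1 fell and 2 did not pass (75.0% past the test). Gnptab, which makes the tag, was higher by 1.46 (SE 0.11), Igf2r, which binds it, by 1.17 (SE 0.061), and Lman1, a cargo receptor of the early secretory path, by 1.73 (SE 0.084), while Sorl1, another sorting receptor, was lower, at -0.93 (SE 0.080). The 2 others that rose were M6pr (1.10) and Gnptg (0.68). Of 9 genes of pump assembly and binding, 1 rose (Oxr1, 1.02) and 2 fell (Dmxl2, -1.51, and Vma21, -0.42), 33.3% past the test and thus below the share of all genes. Of 8 cystatins and other protease inhibitors, not all of them inhibitors of the cathepsins above, 3 rose, 2 fell and 3 did not pass (62.5% past the test, near that of all genes). Cst3 (cystatin C) was higher by 2.06 (SE 0.10), Cstb (cystatin B) by 1.87 (SE 0.12), and Serpinb9 by 1.31 (SE 0.11). Cst7, the cystatin of immune cells, was lower, at -1.58 (SE 0.10), as was Serpinb1a, an inhibitor of neutrophil serine proteases, at -2.36 (SE 0.21). Of the 4 MiT/TFE factors, Mitf was higher at 0.97 (SE 0.13, adjusted p = 2.7e-05), Tfeb (-0.35) and Tfec (-0.32) were lower, and Tfe3 did not pass (8.0e-04).

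Markers of several cell types moved with the members, and their part in these results was not tested. Of 7 osteoclast markers measured, 5 rose and 1 fell in OVX against sham. Acp5, the tartrate-resistant phosphatase, was higher by 4.34 (SE 0.098), Mmp9 by 3.43 (SE 0.14) and Tnfrsf11a (the RANKL receptor) by 2.54 (SE 0.14), while Car2, the carbonic anhydrase that supplies the pump with protons and is also abundant in red cells, was lower, at -1.90 (SE 0.15). Calcr (0.67) and Nfatc1 (0.25) rose by less and Itgb3 did not pass (0.065), while Dcstamp, Ocstamp and Oscar were not analysed here. The mean centred value of the 7 was -0.050 to 0.013 in STBB OVX, 0.012 to 0.11 in LTBB OVX, -0.035 to 0.14 in OVX, against -1.37 to -1.23 in sham. All 7 osteoblast markers rose (median 2.60). Of 8 macrophage markers 5 rose and 1 fell, and their mean was -0.12 to 0.12 over the 9 arrays of ovariectomized rats, against -1.12 to -0.37 in sham. Erythroid, neutrophil and sarcomere markers were the reverse, with 7 of 7, 5 of 5 and 10 of 10 lower in OVX than in sham. Only 2 of 7 listed B cell markers were measured, of which 1 was lower, as were 3 of 6 T and NK cell markers. In each of these last 2 lists 50% passed, below the 58.9% of all genes. Of all genes, 30.3% were higher and 28.6% lower. The mean of the erythroid list was -0.34 to 0.17 over the 9 arrays of ovariectomized rats, against 2.89 to 3.29 in sham. That of the neutrophil list was -0.40 to 0.12 over the 9 arrays of ovariectomized rats, against 2.47 to 3.01 in sham. The sarcomere list varied widely among the ovariectomized groups. Its mean was -3.51 to -1.36 in OVX, against 3.38 to 4.14 in sham. With BB it was -3.64 to 0.65 (LTBB OVX) and -0.18 to 0.53 (STBB OVX). The bearing of these lists on the members' differences from sham, Ctsk included, was not tested.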

How the data were processed

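RNA from 12 pools, 3 for each of 4 groups given in the labels, had been hybridized to Affymetrix rat arrays. The authors deposited log2 values, made by robust multiarray analysis (RMA, with GCOS named in the submitters' processing notes) then scaled in GeneSpring by array and by probe set. For RMA and GCOS no version was found in these sources. The median of each probe set across the 12 arrays is 0, which removes its level, and only differences between arrays were used.

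From the table of 31099 probe sets the 57 controls were dropped, with no filter for low signal. Symbols came from GEO's platform annotation, updated by gene ID (20758 of the 20826 probe sets with 1 symbol) through RefSeq genes of GRCr8. The 436 probe sets with several symbols and the 9780 without one named no gene. Probe sets of a gene were averaged, which concerned 12 of the 46 members. The test was limma 3.58.1 (R 4.3.3), with 4 group means and 1 shared spread, and p-values were adjusted by the Benjamini-Hochberg method over 14217 genes at 0.05. Within-array differences between members were tested by exact two-sided permutation over arrays. Motifs were counted and figures drawn in Python 3.11.15 (matplotlib 3.10.9).

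The fit was tested on simulated data with the real spread and known differences. Precision is limited by the number of arrays. The residual SD of a gene was 0.122 in STBB OVX, 0.149 in LTBB OVX, 0.133 in OVX and 0.190 in sham. All members are accounted for, with values for the isoform families, the cathepsins, the lysosomal membrane proteins and the largest changes among the rest. Of each other list up to 4 genes with the largest changes are named, and others of small counts (Ids, Slc11a2, Lamtor2, Sorl1, Gnptg, Serpinb9, Calcr, Nfatc1 and Itgb3) were named after their values had been seen. The members and lists were chosen with earlier results of these data known. Alternatives tried were quantile normalization, median centring, array weights, 1 probe set per gene, robust moderation, the compared groups alone, a test against a 1.5-fold change, a replicate block and leaving out each pool.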

Additional observations from a re-analysis of the deposited data

How the results depend on the processing

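The count of members called in OVX against sham was 34, against 23 after quantile normalization of the arrays, 25 when tested for a change of over 1.5-fold (where Atp6v0a2, Atp6v0a4, Atp6v0b, Atp6v0d1, Atp6v0e2, Atp6v1g3, Clcn7, Ctsd and Ctss lost their calls), 35 with 1 probe set per gene, and 34 to 35 without each pool in turn. It was 24 for LTBB OVX and 22 for STBB OVX against sham after quantile normalization, and 32 to 36 and 33 to 36 without each pool. For the mean of the 3 ovariectomized groups against sham, the count was 34 to 37 without each pool and 35 with all. Over all 14217 genes, quantile normalization gave 3010 calls in OVX against sham, against 8367 as deposited. The 1.5-fold test gave 2874 calls over all genes, 1 probe set per gene 8115, and leaving out each pool 7654 to 8320. For LTBB OVX and STBB OVX against sham, quantile normalization gave 3192 and 3142 calls over all genes. Leaving out each pool gave 7636 to 8303 calls over all genes for LTBB OVX and 7673 to 8280 for STBB OVX. For the mean of the 3 ovariectomized groups it gave 8564 to 9038. In the diet comparisons 0 members were called under each alternative run. With a replicate block the counts against sham were 34 for OVX, 35 for LTBB OVX and 33 for STBB OVX, as without it. Over all 14217 genes the block gave 8196, 8137 and 8154 calls in the same order. Pool numbers did not pair the arrays. Same-numbered arrays had correlations of -0.28 to 0.16 between their deviations from group means. For 3 of 12 arrays, the mean correlation with arrays of the other groups was highest for their own pool number. Of the within-array pairs, C1 minus C2 gave 0.60 (exact permutation test, adjusted p = 0.136) after quantile normalization, and Tcirg1 minus Atp6v0a2 reversed to -0.22 with the second Tcirg1 probe set. That alternative, and the last listed probe set per gene, were chosen after seeing the data; with the last probe set Atp6v0b (0.17) and Atp6v1g3 (-0.055) lost their calls. The causes were not tested. With 3 pools in a group, small differences such as those of Ctsb and Lamp1 could not be settled, and the centring removed the levels that would show which probe sets were near background.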
